A study of Rattus norvegicus with 24 samples.

Results

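The liver of male Sprague-Dawley rats, an outbred laboratory strain, was compared between early adult life (4 and 10 months) and late life (18 and 24 months). All 4 liver arrays of the series were members by their tissue and age labels, out of 24 arrays that also cover hypothalamus, pituitary, spleen lymphocyte, kidney and bone at the same ages. Every rat was untreated and of 1 strain and sex, kept with free access to water and chow, so age was the only labelled difference between the early group (2 arrays) and the late group (2 arrays). At each age the authors mixed RNA of 1 tissue from 10 rats and hybridised the mixture to a single array, and 1 set of 10 rats gave all the tissues at that age. An array therefore shows the average of a pool and nothing of the spread between rats, and the 2 arrays of a group differ in age as well as in pool. The sources used here do not give the hour at which tissues were taken.

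The liver makes most plasma proteins, turns surplus amino acid nitrogen into urea, makes glucose, lipids and bile acids, and clears drugs and steroids. In rats many of its genes differ between the sexes because growth hormone is released in pulses in males and almost continuously in females. Hepatocytes near the portal vein and near the central vein hold different enzymes, and the liver's own clock and its response to glucocorticoids and insulin vary over the day and with feeding. Macrophages (Kupffer cells), endothelial cells, stellate cells and lymphocytes make up the rest of the organ.

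Values are MAS5.0 signals, the brightness of a probe set after the authors scaled each array to a target of 500, and they are given below in the order 4, 10, 18 and 24 months. A signal under 100 was counted as 100 (the floor), and differences are late minus early means of log2 signals, so that a fold against floored arrays is a lower bound on this scale. Of 10411 genes on the array, 8432 reached 100 on at least 2 liver arrays and were tested. The array medians were 216 and 213 in the early group and 237 and 244 in the late group, and 76.6 to 79.2% of the genes reached 100. Hepatocyte markers fitted the tissue label: 27 of 28 on the array reached 100 on each liver array, with summed signals of 593203 to 662035, and albumin (Alb) read 72484, 68520, 67352 and 71478. Cebpa, a transcription factor of hepatocytes, was the marker under 100, at 84.7, 17.7, 33.9 and 40.6. Kidney markers reached 100 for 7 to 9 of 21, pancreas markers for 8 to 12 of 22, and neuron and pituitary markers for 14 to 18 of 27. Of the pituitary hormone genes, Pomc and Prl stayed under 100 on every liver array, while Lhb read 419, 398, 504 and 767, and Cga and Fshb were also over 100 on all 4. The 3′ to 5′ signal ratio of the Gapdh control, which falls where the labelled RNA is longer, was 1.77, 1.75, 2.06 and 0.74 on the log2 scale, and that of Actb was 2.85, 2.74, 2.61 and 1.43. The 24-month array thus stood apart on both, and values without it are given below where they differ most.

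Both late arrays lay above both early ones for 1973 of the 8432 genes (23.4%) and below them for 1212 (14.4%), and these 2 shares are the background for every list below. A further limit of 2-fold between the means left 85 genes above (1.01%) and 36 below (0.427%). In limma fitted to the liver arrays alone, 0 genes passed an adjusted p of 0.05 (0.0%), the smallest adjusted p was 0.656, and 407 genes above and 160 below had an unadjusted p under 0.05. With 2 arrays against 2, an exact two-sided permutation test of any single gene cannot go below 0.333. So no gene is called changed from the liver arrays alone, and genes are described below as higher or lower where the groups do not overlap.

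Direction went with abundance. Among the 1694 genes with a mean signal of 1000 or more, 155 (9.15%) were higher in both late arrays and 428 (25.3%) were lower, while among the 3454 genes under 300 the counts were 987 higher and 363 lower. Quantile normalization, which gives every array the same distribution of signals, removed the tilt: 17.8% of all genes were then higher and 17.1% lower, and in every class of signal the shares lay between 14.4 and 18.9%. Higher genes made up 61.9% of the separated genes on the deposited scale, 51.0% after quantile normalization and 33.4% after centring each array on its median. The median difference over all genes was 0.05 on the deposited scale, less than 0.01 in size after quantile normalization and -0.08 after median centring. For a list of abundant genes, the share of 25.3% is therefore the closer background for lower members.

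**Figure D1:**
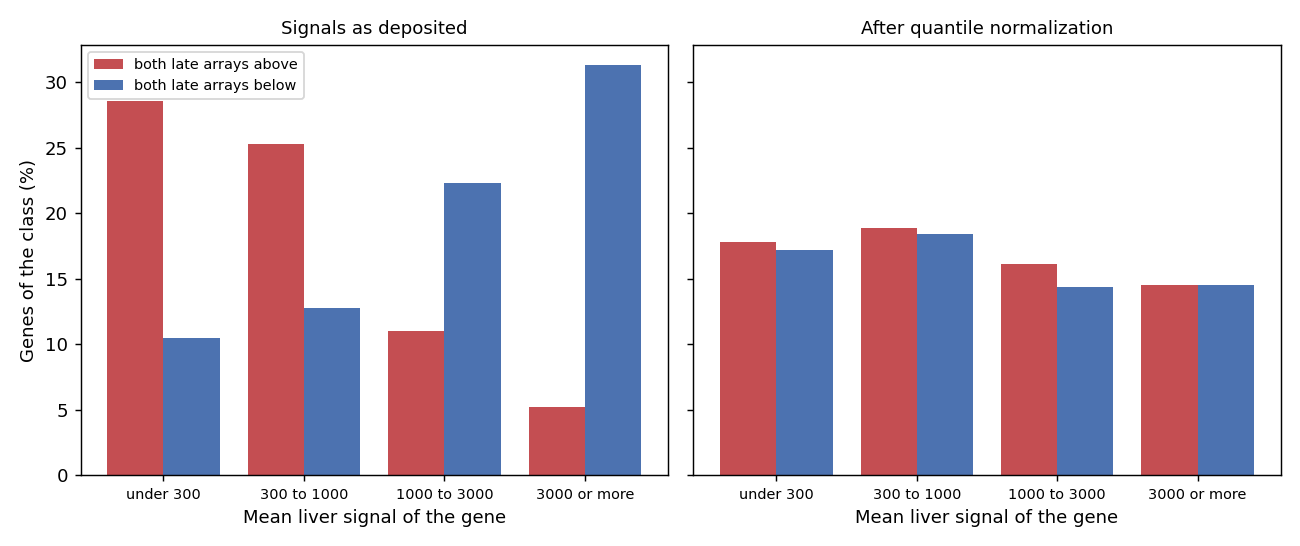
Share of liver genes (vertical axis, percent) with both late arrays above (red) or below (blue) both early ones, by the gene's mean signal over the 4 liver arrays (horizontal axis), with signals as deposited (left) and after quantile normalization (right). As deposited, 31.3% of genes at 3000 or more were lower and 5.24% higher, and after quantile normalization both shares were 14.5%.

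Whether a difference was particular to liver was tested in a fit over all 24 arrays, in which the 12 groups of tissue and period share their spread. Late against early in liver passed an adjusted p of 0.05 in that fit for 13 genes (0.154%), 10 higher and 3 lower. Against the mean difference of the other 5 tissues, 8 genes passed (0.0949%), 6 higher and 2 lower, and 706 had an unadjusted p under 0.05. Arrays of an age share their rats across tissues, and with age as a block 3 of the 8 passed in limma: Baiap2l1 (adjusted p = 0.0131), Rgs9 (0.0311) and Trpc1 (0.0311). The other 5 then had adjusted p-values of 0.0605 to 0.0742. Against kidney alone 0 genes passed (0.0%), with a smallest adjusted p of 0.103 and 756 genes at an unadjusted p under 0.05.

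Rgs9, which shortens signals of G protein-coupled receptors, read 245, 168, 562 and 481 in liver. Both late pools were above both early ones, and the difference exceeded that of the other tissues by 1.55 ± 0.24 on the log2 scale (SE, limma adjusted p = 0.0172). It also passed under the 13 other alternatives run without that block, with adjusted p-values from 0.00197 to 0.0378. Baiap2l1, an adaptor between the insulin receptor and actin, read 410, 357, 129 and 73.1, and its late minus early difference departed from that of the other tissues by -1.96 ± 0.30 (SE, limma adjusted p = 0.0172). It reached 100 on 4 of the 20 arrays of other tissues, so floored values with no spread of their own entered its fit.

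Sds is serine dehydratase, which turns serine into pyruvate for glucose production. Its signals were 637, 441, 196 and 165, lower at each later age, and liver departed from the other tissues by -1.66 ± 0.29 (limma adjusted p = 0.0353). The same gene was -0.59 in kidney, 0.70 in bone and 0.77 in spleen lymphocyte, with 10 of the 20 arrays at 100 or more. Adh7, an alcohol and retinol dehydrogenase, read 106, 42.7, 216 and 204, and was under 100 on all 20 other arrays. Its difference of 1.03 ± 0.17 from the other tissues (limma adjusted p = 0.0353) is therefore set against constant values, and its error is understated.

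Trpc1, a cation channel subunit, read 71.4, 41.6, 264 and 395 in liver and departed from the other tissues by 1.94 ± 0.35 (SE). Both early pools were under the floor, so it entered the test only through the late arrays, and its early values had no spread of their own. Rtn4, also called Nogo, shapes the endoplasmic reticulum, and its signals of 377, 368, 846 and 997 left the early pools well under the late ones. Averaging its 2 probe sets gave a liver difference of 1.04 in place of 1.30. Usp48, a ubiquitin protease, read 188, 225, 418 and 446, and Socs7, a suppressor of cytokine signalling, read 215, 232, 506 and 465. For Trpc1, Rtn4, Usp48 and Socs7 the adjusted p in limma against the other tissues was 0.0406. Socs7 missed the threshold in liver itself (limma adjusted p = 0.0525). The second probe sets of Usp48 and Socs7 did not follow: averaged over both, the liver difference was 0.43 for Usp48 and 0.24 for Socs7, in place of 1.07 and 1.12.

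**Figure D2:**
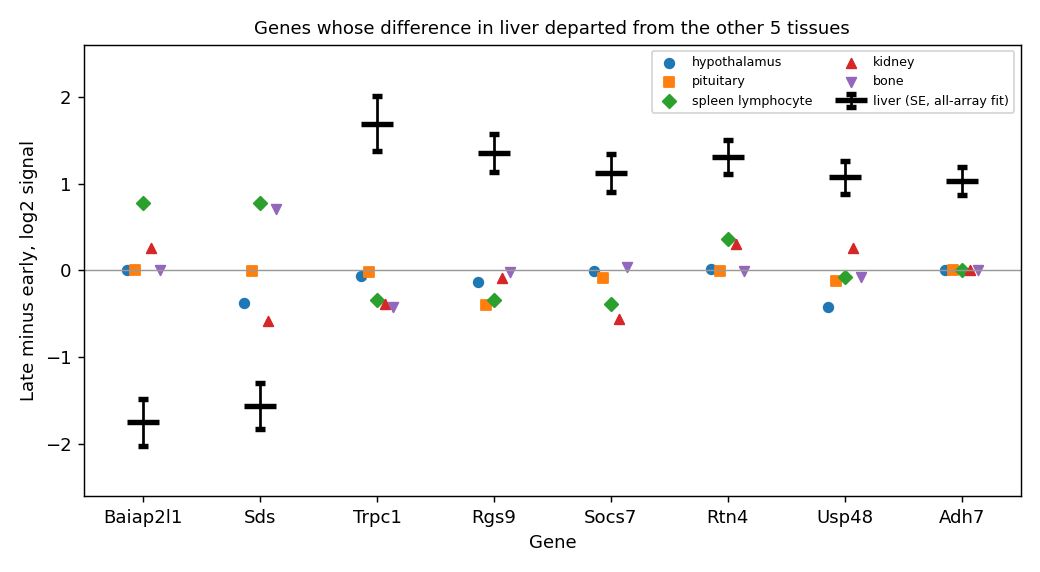
Late minus early difference of the mean log2 signal (vertical axis) for the 8 genes whose difference in liver departed from that of the other tissues in limma. The black bars are liver with the SE of the all-array fit and the coloured points are the other 5 tissues. In every case the liver value lies beyond all 5 others, and all 5 points of Adh7 lie at 0 because its signals there were under the floor.

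Another 6 genes passed in liver in the all-array fit without passing against the other tissues. Serpina7, which encodes thyroxine-binding globulin, had the largest difference, 2.32 ± 0.41 (limma adjusted p = 0.0218), with signals of 12.6, 448, 840 and 1325. It was under the floor at 4 months, higher at each later age, and under 100 on all 20 other arrays. As for Adh7, those constant values entered the shared spread, and its error is understated. In the fit to the liver arrays alone its SE was 0.69 (limma adjusted p = 0.679). Gpr182, a receptor of the sinusoidal endothelium, read 78.1, 109, 216 and 233 (difference 1.10, limma adjusted p = 0.0211). Vps33b, a vesicle sorting protein needed for bile canaliculi, read 117, 165, 296 and 289, and Rnf185, a ubiquitin ligase of the endoplasmic reticulum, read 308, 338, 65.4 and 131. The remaining members of the set were Hic2, a transcriptional repressor, and Slc35a4, of a family of nucleotide sugar transporters.

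By the width of the gap between the lowest late and the highest early array, the first genes above were Trpc1, Slc35a4, Snx6, Rtn4, Abca2, Fam111a, Igfbp2, Tomm40l, Hic2, Sh3bgr, Pdlim4 and Tma16, with gaps of 1.06 to 1.40 on the log2 scale. Snx6, a sorting nexin of the retromer, read 208, 248, 623 and 586, the highest of these after Rtn4. Igfbp2, a binding protein of insulin-like growth factors, read 87.9, 64.0, 241 and 219. The first genes below were Baiap2l1, Skic2, Maz, Ctrl, Rnf185, Trappc5, Sds, Tecpr1, Rad54l2, Acp5, Akap12 and Heg1, with gaps of -0.99 to -1.46. Skic2, an RNA helicase that feeds the cytoplasmic exosome, read 275, 267, 84.7 and 68.6, and Maz, a zinc finger transcription factor, 249, 265, 69.4 and 34.5. These were dim genes: the mean signals of the 24 lay between 145 and 585, and 13 of the 85 genes higher by 2-fold, with 7 of the 36 lower, were at or under the floor on both arrays of the lower group. Of those named, Trpc1, Abca2, Igfbp2, Tomm40l, Sh3bgr, Pdlim4 and Tma16 were under 100 on both early arrays. They entered the test only through the late arrays, as Skic2, Maz and Ctrl did only through the early arrays. Averaging probe sets reduced the difference of Tomm40l from 1.18 to 0.59, that of Hic2 from 1.20 to 0.59 and that of Akap12 from -1.19 to -0.58.

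Genes of the urea cycle and amino acid breakdown had the largest share of lower members among the lists plotted below, as deposited. Of 37 genes tested, 18 were lower in both late arrays and 1 was higher, and the median difference was -0.23 on the log2 scale against 0.05 over all genes. Among its 31 members with a mean signal of 1000 or more, 15 were lower, where 25.3% of such genes were lower in all. After quantile normalization 12 were lower and 3 higher, with a median of -0.16. The 18-month array was the lowest of the 4 for 24 of the 37 members, against 18.4% of all genes, and the 24-month array for 8. Without the 18-month array the median was -0.13, and without the 24-month array -0.40.

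After Sds, the separated members described first are Gpt, Gls2, Prodh and Hal. Gpt, alanine aminotransferase, read 1880, 2138, 1061 and 1179, with both late pools well under both early ones. Gls2, the liver glutaminase that releases ammonia for urea, read 2956, 2585, 1450 and 1705. Prodh, which opens proline breakdown, read 1556, 1074, 711 and 779, and Hal, histidine ammonia lyase, 1165, 989, 777 and 688. The differences of Gpt, Gls2, Prodh and Hal were -0.84 ± 0.22, -0.81 ± 0.22, -0.80 ± 0.26 and -0.55 ± 0.22 (SE), with limma adjusted p-values of 0.679, 0.679, 0.679 and 0.735 in the liver fit.

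Enzymes of methionine metabolism were mixed. Mat1a, which makes S-adenosylmethionine, read 12624, 10961, 9699 and 9398, and Ahcy, which clears S-adenosylhomocysteine, read 8120, 6667, 5435 and 5600. Cbs, which commits homocysteine to cysteine, read 2622, 2796, 1772 and 2474, and these 3 genes were lower in both late pools. The glycine methyltransferase Gnmt (5941, 6242, 4139 and 6387), the betaine methyltransferase Bhmt (4309, 5118, 3435 and 4765) and Cth, which releases cysteine (2002, 3431, 2693 and 3706), overlapped. Agxt, alanine-glyoxylate aminotransferase, was the member that was higher, with 872, 1316, 1368 and 1522.

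The urea cycle itself was less uniform. Arg1, arginase, read 18344, 13163, 13036 and 12868, where the 10, 18 and 24-month pools lay close together and the 4-month pool above them. Cps1, the entry enzyme, read 3519, 3274, 2249 and 4849, and Ass1, argininosuccinate synthase, 17590, 18455, 12458 and 20469, with the lowest value at 18 months, the highest at 24 and overlapping groups. A second, brighter probe set of Cps1 did not share this course. It read 25351, 14743, 17699 and 19460, also overlapping, but highest at 4 months and lowest at 10. Tat, tyrosine aminotransferase, a classic glucocorticoid target, read 1615, 933, 426 and 941, also overlapping and lowest at 18 months, with a difference of -0.95 between the group means that was larger than that of Gpt.

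**Figure D3:**
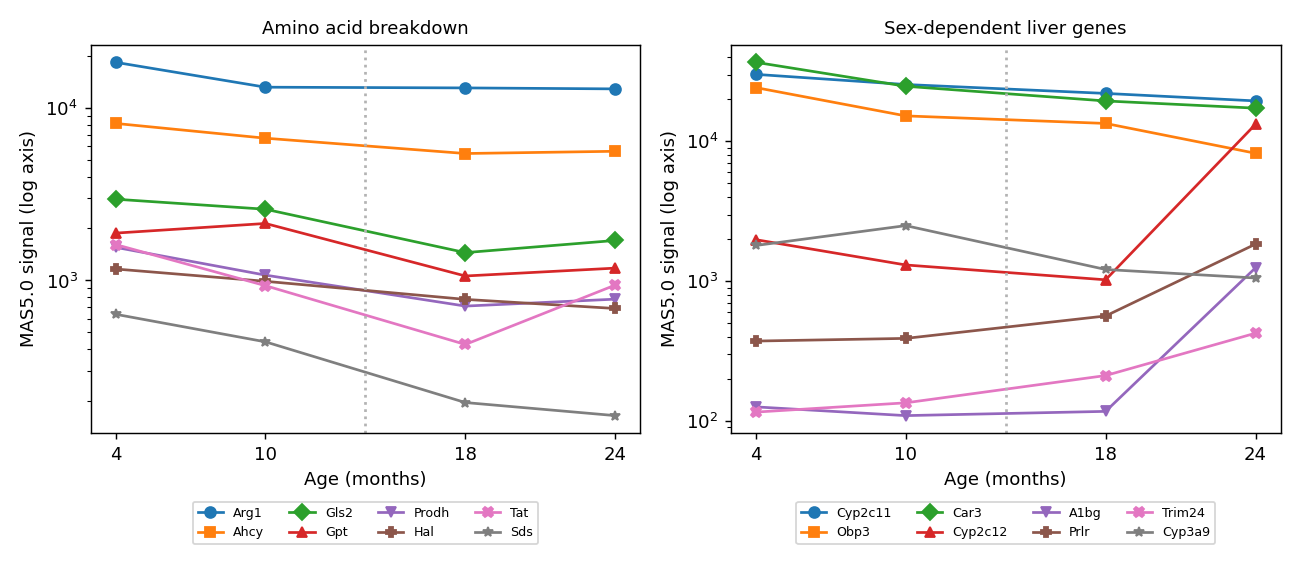
MAS5.0 signal (log axis) on the liver arrays at 4, 10, 18 and 24 months (horizontal axis), 1 pool of 10 rats per point, for genes of amino acid breakdown (left) and sex-dependent liver genes (right). The dotted line divides the early from the late ages. Sds runs from 637 to 165, Tat has its lowest point at 18 months, and Cyp2c12 and A1bg leave their earlier level at 24 months.

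Periportal genes, which include several of the enzymes above, were lower for 8 of 19 and higher for 0, with a median of -0.24. Pericentral genes were lower for 5 of 17 and higher for 3, with a median of -0.02. Pck1, the periportal enzyme that opens glucose production, read 30754, 22622, 20347 and 16145, lower at each age. On the pericentral side, Oat, ornithine aminotransferase, read 2233, 2990, 1776 and 2047, while glutamine synthetase (Glul) read 1287, 1785, 1665 and 2052 with overlapping groups. Aldh1a1, which makes retinoic acid, read 2470, 5276, 8345 and 6812 and had the largest difference of either list in the upward direction, 1.06 ± 0.39 (limma adjusted p = 0.704). After quantile normalization the periportal count was 5 lower and 0 higher, and the pericentral count 3 and 3. The pericentral median was -0.23 with the mean of probe sets, where the periportal one was -0.19, and -0.21 with 10 of 17 lower without the 24-month array. So the distance between the zones was not stable, and it was not tested.

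Sex-dependent genes were next. Of 15 male-type genes tested, 6 were lower in both late arrays and 2 higher (median -0.27), and 5 were lower and 2 higher after quantile normalization. All but 1 of the 15 had a mean signal of 1000 or more, so the lower share stands beside 25.3%. The 24-month array was the lowest for 11 of the 15, where 40.7% of abundant genes were lowest there, and the median was -0.11 without it and -0.10 without the 4-month array. Cyp2c11, the main male-specific steroid hydroxylase, read 30190, 25543, 22056 and 19496, lower at each later age. Obp3, an alpha-2u globulin relative secreted as a pheromone carrier, read 24279, 15229, 13450 and 8227, and Car3, carbonic anhydrase 3, read 36823, 24813, 19477 and 17301. A second, dimmer probe set of Car3 (2911, 585, 472 and 1208) overlapped. The differences of Cyp2c11, Obp3 and Car3 were -0.42 ± 0.22, -0.87 ± 0.35 and -0.72 ± 0.27 (SE). Cyp3a18, Hsd3b5 and Mup5 completed the lower set, and the other main male P450 genes did not separate: Cyp2c13 read 28291, 22057, 23843 and 20050, and Cyp3a2 20334, 16061, 18047 and 16036. Against this direction, Cyp4a8 read 382, 1304, 1519 and 1992 and its 2 probe sets averaged 1.03 in place of 1.30.

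Female-type genes were divided, with 3 of 14 higher, 4 lower and a median of 0.16, which turned to -0.14 without the 24-month array. Prlr, the prolactin receptor, read 373, 390, 564 and 1842, with a difference of 1.42 ± 0.54 (limma adjusted p = 0.713), and its 3 probe sets averaged 1.79. Trim24, a nuclear receptor cofactor, read 116, 135, 211 and 425, and Cyp2a1, a testosterone 7-alpha hydroxylase, read 1486, 1812, 1949 and 2483. Opposite to these, Cyp3a9 read 1800, 2498, 1213 and 1054. Sult1e1, the estrogen sulfotransferase and 1 of the 4 lower members, read 20917, 22889, 14999 and 11365. Listing Sult1e1 as female-type is uncertain: it was abundant in these male livers and, like Cyp2c11, Obp3 and Car3, lower in both late pools. The steroid hydroxylase Cyp2c12 (1982, 1307, 1023 and 13266) and the plasma protein gene A1bg (126, 109, 117 and 1247), both defining female-type genes, overlapped between the groups because neither 18-month pool lay above both early ones. Without the 24-month array their differences were -0.65 and -0.003, so whatever separates late from early for this pair rests on a single pool. Probe sets of the Cyp2c, Cyp3a, Mup and Sult families can bind transcripts of close relatives, and their gene names are uncertain to that extent.

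Among the sex-dependent genes tested, A1bg and Cyp2c12 had the widest jump from 18 to 24 months. Akr1b7, listed as female-type but left out by the filter, read 80.5, 20.7, 12.8 and 1151. The promoters of A1bg and Cyp2c12 are shown for the jump of this pair and because STAT5 carries the growth hormone signal to such genes. Both run 5′ to 3′ from 250 bases before the annotated start to 50 after it, from RefSeq on build GRCr8, with matches to the STAT5 motif TTCNNNGAA (either strand) in capitals.
A1bg (chr7:94387447-94387746, minus strand): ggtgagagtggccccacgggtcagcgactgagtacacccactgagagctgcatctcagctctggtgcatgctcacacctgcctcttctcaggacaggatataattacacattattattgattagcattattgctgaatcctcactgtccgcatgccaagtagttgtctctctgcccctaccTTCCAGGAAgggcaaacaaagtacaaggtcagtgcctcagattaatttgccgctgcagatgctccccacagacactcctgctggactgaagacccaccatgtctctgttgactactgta
Cyp2c12 (chr1:248676985-248677284, minus strand): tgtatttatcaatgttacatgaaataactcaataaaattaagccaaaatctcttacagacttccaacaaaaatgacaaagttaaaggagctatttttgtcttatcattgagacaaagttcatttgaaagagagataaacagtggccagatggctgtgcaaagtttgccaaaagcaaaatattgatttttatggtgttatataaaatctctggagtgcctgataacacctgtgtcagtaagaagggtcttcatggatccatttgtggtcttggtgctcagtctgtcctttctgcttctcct
A1bg holds a match 69 bases before its start, and the window of Cyp2c12 holds none. A match was present in 8.87% of all 33469 promoters in the table, in 2 of 12 female-type genes with an entry (A1bg and Prlr) and in 3 of 11 male-type genes (Cyp4a8, Gsta3 and Rup2). A match is a run of letters and not a measured binding site.

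In the growth hormone and IGF axis, 4 of 23 genes were lower and 6 higher, close to the shares over all genes, and the median was 0.03. Igf1, the growth factor that liver releases under growth hormone, read 11280, 10603, 9239 and 7163. Its carriers divided: Igfbp1 read 2534, 1454, 1226 and 1073, Igfbp3 579, 672, 466 and 411, and Igfbp4 4261, 4419, 3647 and 3557, all lower in both late pools, whereas Igfbp2 (above) was higher. Igfbp2 was under 100 in both early pools, so it entered the test only through the late arrays. A second probe set of Igfbp3 (927, 697, 725 and 519) overlapped. The receptor Ghr read 6587, 4527, 4858 and 4525 and overlapped. Of the transcription factors of the axis, Hnf4a read 132, 184, 251 and 273, and Onecut1 563, 1422, 1507 and 1451, where most of the distance lay between 4 and 10 months. Second probe sets of Hnf4a (159, 199, 177 and 284) and Onecut1 (280, 218, 245 and 336) overlapped. That of Onecut1 was lower at 10 months than at 4.

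Clock genes were lower for 7 of 16 and higher for 2, with a median of -0.01, and for 5 and 1 after quantile normalization. Per2, a repressor arm of the clock, read 777, 440, 93.5 and 417, and Usp2, a clock output ubiquitin protease, read 557, 311, 122 and 243. In both the 18-month pool was far under the other 3, and the 24-month pool also lay under the 10-month one. A second probe set of Usp2 (1091, 236.5, 148 and 238.2) was also lowest at 18 months, but its groups overlapped. Alas1, the rhythmic first enzyme of heme synthesis, read 3120, 1220, 1117 and 1194, and Csnk1d, the kinase that marks PER proteins for decay, 1009, 917, 721 and 569. The other 3 probe sets of Csnk1d did not follow, and the mean over all 4 gave 0.22 in place of -0.59. Nr1d1, the repressor REV-ERB alpha, was higher, with 165, 256, 277 and 410, as was Clock with 229, 301, 339 and 402. Further probe sets of Clock (454, 342, 391 and 593, and 123, 58.3, 64.4 and 119) overlapped between the groups. The activator Bmal1 (177, 344, 205 and 359) and Per1 (120, 89.6, 108 and 130) overlapped. Since Per2 and Usp2 move over the day and no hour of sampling was available, age and hour cannot be told apart for these genes.

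Per2 and Nr1d1 are shown as clock genes of either direction with a match to 1 of 2 classical clock motifs. These are the D-box (TTATGTAA), found in Per2, and the E-box (CACGTG), found in Nr1d1, searched on both strands, with matches in capitals. The windows are as above, from RefSeq on GRCr8, and the second of 2 listed starts is given for Nr1d1. The window of its first listed start held neither motif.
Per2 (chr9:99496944-99497243, minus strand): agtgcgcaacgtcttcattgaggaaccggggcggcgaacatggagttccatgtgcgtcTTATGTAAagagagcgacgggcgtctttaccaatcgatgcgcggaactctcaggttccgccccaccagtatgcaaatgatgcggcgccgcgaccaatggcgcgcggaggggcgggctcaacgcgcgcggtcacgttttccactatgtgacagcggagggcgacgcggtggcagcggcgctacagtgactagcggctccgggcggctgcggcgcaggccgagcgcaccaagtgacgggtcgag
Nr1d1 (chr10:84229405-84229704, minus strand): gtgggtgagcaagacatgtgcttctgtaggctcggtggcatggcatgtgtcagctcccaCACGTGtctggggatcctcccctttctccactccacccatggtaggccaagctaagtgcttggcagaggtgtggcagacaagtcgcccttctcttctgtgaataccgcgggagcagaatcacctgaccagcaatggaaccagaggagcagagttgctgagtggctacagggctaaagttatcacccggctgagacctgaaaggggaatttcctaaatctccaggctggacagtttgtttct
The D-box of Per2 begins 192 bases before its start and the E-box of Nr1d1 191 bases before its start. A D-box was found in 0.89% and an E-box in 6.42% of the promoters in the table. Of 14 clock genes with an entry (16 promoters), 1 held a D-box (Per2) and 2 an E-box (Bhlhe40 and Nr1d1).

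**Figure D4:**
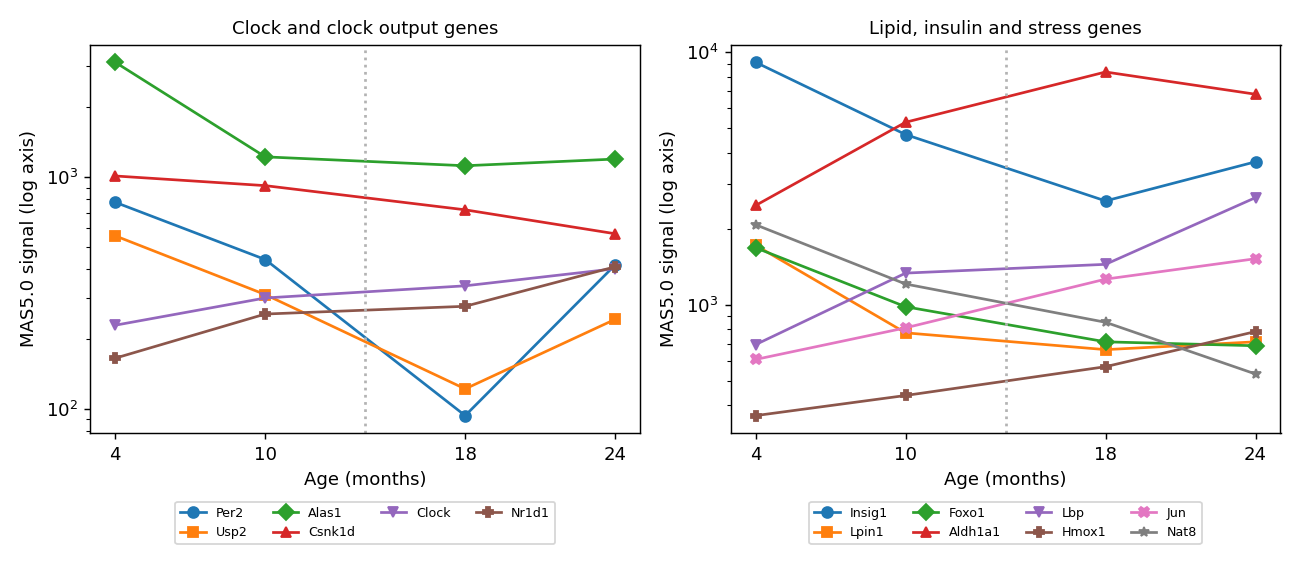
MAS5.0 signal (log axis) on the liver arrays at 4, 10, 18 and 24 months, 1 pool per point, for clock and clock output genes (left) and for genes of lipid, insulin and stress control (right). The dotted line divides the early from the late ages. Per2 and Usp2 have their lowest point at 18 months, and Insig1 runs from 9116 to 2574 by 18 months. Lbp, Hmox1 and the plotted probe set of Jun are highest at 24 months.

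Glucocorticoid-responsive and immediate early genes were lower for 7 of 35 and higher for 4. Tsc22d3 (GILZ), a direct glucocorticoid target, read 2315, 865, 825 and 733, and Klf9, another, 3845, 2821, 2614 and 1986. Errfi1, a feedback inhibitor of the EGF receptor, read 14208, 11340, 9493 and 10235. In each the 4-month pool was well above the rest. Jun, a subunit of the AP-1 factor, went the other way with 606, 809, 1261 and 1519 (difference 0.98 ± 0.25, limma adjusted p = 0.679). Further probe sets of Jun (164, 334, 430 and 235, and 290, 614, 920 and 488) overlapped between the groups and were highest at 18 months. Klf6, a stress-induced factor, read 165, 254, 335 and 318.

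Among insulin, mTOR and sirtuin genes, 7 of 34 were lower and 6 higher. Foxo1, the factor through which insulin restrains glucose production, read 1678, 980, 712 and 687. Foxo3 read 1609, 1630, 1238 and 1078, and the S6 kinase Rps6kb1 561, 395, 274 and 275. A second, dimmer probe set of Rps6kb1 (168.8, 111.7, 112.0 and 53.5) overlapped, with a difference of -0.38. Rptor, the scaffold of mTORC1, was higher with 235, 239, 371 and 372, as was the translation repressor Eif4ebp1 with 657, 741, 831 and 1128. After quantile normalization 10 were lower and 6 higher. Other probe sets of the FOXO genes did not follow, and the mean over 3 probe sets was -0.30 in place of -0.88 for Foxo1 and -0.13 in place of -0.49 for Foxo3.

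Cholesterol synthesis genes showed little separation, with 3 of 19 lower and 1 higher. Insig1, the sterol sensor that holds back SREBP and is itself an SREBP and insulin target, had the largest difference, with 9116, 4715, 2574 and 3678 (-1.09 ± 0.38, limma adjusted p = 0.679). In fatty acid synthesis 4 of 22 were lower and 2 higher, and 3 and 1 after quantile normalization. Mlxipl, the glucose-responsive factor ChREBP, read 614, 387, 253 and 301, and Lpin1, a phosphatidate phosphatase and coactivator, 1717, 772, 663 and 712. Fasn, fatty acid synthase, read 5385, 2647, 2960 and 4639 and overlapped.

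Bile acid synthesis and transport genes were lower for 6 of 21 and higher for 1, and 3 and 1 after quantile normalization. Slco1a4, an uptake transporter, read 9198, 9625, 5664 and 6841. Hsd3b7, a bile acid synthesis enzyme, was higher with 1120, 1359, 1558 and 1808. Cyp7a1, the rate-limiting enzyme of the pathway, read 4450, 1313, 766 and 1387, and its 24-month pool was above its 10-month pool. Nr0b2 (SHP), its repressor, read 1388, 363, 361 and 369, so the step lay between 4 and 10 months and not between the early and late groups.

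Lipoprotein and lipid droplet genes were mixed, with 6 of 27 lower and 5 higher. Mgll, monoglyceride lipase, read 1447, 730, 606 and 405, and Lcat, which esterifies plasma cholesterol, 13386, 13576, 10329 and 8449. Cd36, the fatty acid translocase, read 82.2, 124, 141 and 377, and Lpl, lipoprotein lipase, 135, 218, 257 and 300. Fatty acid oxidation separated least among the lipid lists, with 2 lower and 2 higher of 29, though 5 and 4 of 30 after quantile normalization. Its largest member was Crot, the peroxisomal carnitine octanoyltransferase, with 1980, 2652, 4510 and 3670.

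Genes of oxidative phosphorylation were lower for 21 of 67 and higher for 1, with a median of -0.25. Of the 63 with a mean signal of 1000 or more, 21 were lower, against 25.3% of such genes in all, and after quantile normalization 10 of 67 were lower and 2 higher, with a median of -0.14. Atp5me, an ATP synthase subunit, read 6240, 4478, 3523 and 2133, and Uqcr10, of complex III, 6894, 7219, 5641 and 2822. Ndufb3, of complex I, read 7054, 8590, 6805 and 4112. The 24-month array held the lowest signal for 48 of the 67 genes, where 23.5% of all genes and 40.7% of abundant genes were lowest there. This is the array whose 3′ to 5′ ratios stood apart, and without it the median of the list was -0.06.

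Ribosomal protein genes separated for only 3 of 39, all higher, and for 8, again all higher, after quantile normalization. Their median difference was -0.03 as deposited and 0.12 after quantile normalization. Their level followed single arrays: the median of the list was 12.75, 13.26, 13.27 and 12.60 on the log2 scale, so the outer ages lay below the middle ones. Rpl7 read 5640, 6203, 6789 and 7368.

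Drug and steroid P450 genes were lower for 9 of 31 and higher for 3, but 5 and 5 after quantile normalization, and 8 of 22 abundant members were lower. Besides the sex-dependent members already given, Cyp2j3, which makes epoxides of arachidonic acid, read 1969, 2081, 1931 and 937, and Cyp1a2 8881, 10907, 7942 and 7776. Cyp2e1, the ethanol-induced enzyme, read 16296, 18172, 16587 and 19322 and overlapped. Conjugation enzymes and transporters were lower for 9 of 37 and higher for 7. Nat8, which acetylates cysteine conjugates, read 2070, 1206, 851 and 531, the largest lower difference of the list at -1.23 ± 0.36 (limma adjusted p = 0.679, and 0.0696 in the all-array fit). Ces1d, a carboxylesterase, read 6644, 5927, 5432 and 3259. Nqo1, a quinone reductase, was higher with 1093, 1099, 1306 and 1302, as was Gstm5 with 255, 241, 364 and 342. Ugt2b read 12225, 16.9, 10413 and 14704: a single pool at the floor sets the difference of this gene.

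Acute phase proteins were higher for 7 of 31 and lower for 3, near the shares over all genes, but 10 and 2 after quantile normalization. Lbp, which presents bacterial lipopolysaccharide to macrophages, read 694, 1332, 1443 and 2652 (1.02 ± 0.43, limma adjusted p = 0.739). Serpina3n, a protease inhibitor that also answers to growth hormone, read 14224, 18107, 19308 and 21223. Agt, angiotensinogen, was lower with 6186, 5418, 4212 and 4160, and so was the thyroxine and retinol carrier Ttr with 40331, 37838, 36750 and 32616. Complement and coagulation genes were higher for 2 of 30 and lower for 3, and 8 and 1 after quantile normalization. C4bpa, a complement inhibitor, read 13555, 16321, 16960 and 18747.

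Immune cell markers were described by 4 lists. MHC class II and antigen-presenting cell genes were higher for 5 of 13 and lower for 1, with a median of 0.32, macrophage markers for 6 of 19 with 1 lower, lymphocyte markers for 4 of 15 with 0 lower, and neutrophil and mast cell markers for 1 of 7 with 1 lower. After quantile normalization the higher counts were 4, 4, 2 and 0, and 2 of the 7 neutrophil and mast cell markers were lower. No lymphocyte marker reached a mean of 1000, and 28.6% of all genes under 300 were higher. Among class II genes RT1-DMa, which loads peptides, read 109, 239, 265 and 309, and Ciita, the class II master regulator, 251, 245, 361 and 341. The abundant class II chaperone Cd74 read 1000, 2012, 1466 and 2567 and overlapped. Cd53, a leukocyte tetraspanin, read 508, 518, 714 and 874, and the complement gene C1qc, made by macrophages, 810, 858, 859 and 1461. The 10 and 18-month pools of C1qc were nearly level (857.8 and 859.2), so its difference lay mostly at 24 months. C1qa (1079, 1460, 1265 and 2206.5) and C1qb (564, 652, 595 and 1462) overlapped. Clec4f, the marker of Kupffer cells, read 2546, 4177, 3233 and 3067 and did not separate.

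Summed over all 20 macrophage markers on the array, the signal was 16027 and 21097 in the early group and 18997 and 21168 in the late group, which overlap. Summed over all 22 lymphocyte markers it was 3902 and 4643 against 4882 and 5684, which do not, and 12 to 16 of them reached 100. The lymphocyte genes Cd3d and Cd8a read 12.2, 37.7, 87.6 and 138, and 25.0, 31.0, 27.9 and 54.5, at or near the floor. Without the 24-month array, the median difference of the class II list was -0.04 and that of the lymphocyte list 0.03. In a bulk sample, more cells of a type and more RNA per cell cannot be told apart.

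MHC class I and peptide loading genes were higher for 3 of 18 and lower for 0. RT1-M3-1, a nonclassical class I gene, read 181, 170, 279 and 391, and the proteasome activator Psme1 2339, 2662, 3070 and 3538. Interferon response genes were higher for 6 of 25 and lower for 2. Cxcl10, a chemokine that draws T cells, read 135, 208, 263 and 296, while Mx2, an antiviral GTPase, was lower with 288, 746, 204 and 161. Its second probe set went the other way (102, 198, 235 and 237), and the mean of both gave -0.31 in place of -1.35. After quantile normalization 9 of the 25 were higher and 2 lower.

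Matrix and stellate cell genes went both ways, with 13 of 41 higher and 9 lower, turning to 9 higher and 14 lower after quantile normalization. Among fibrillar collagens, Col3a1 (3007, 1645, 1124 and 1423) and Col5a2 (274, 230, 167 and 129) were lower. Col1a1 (410, 202, 236 and 275), Col1a2 (457, 324, 348 and 418) and Col5a1 (286, 289, 212 and 315) overlapped. A second probe set of Col1a2 (303, 195, 60.2 and 168) was lower in both late pools. That of Col5a1 (83.2, 124, 277 and 176) was higher in both. Lox, which cross-links collagen, read 472, 390, 330 and 246, and Tgfb2, a fibrogenic cytokine, 242, 186, 67.1 and 92.7. Higher members were Thy1, a fibroblast marker, with 246, 123, 294 and 258, Des, desmin of stellate cells, with 123, 140, 172 and 238, and the protease inhibitor Timp2 with 340, 280, 381 and 528. A second probe set of Timp2 overlapped (199, 169, 247 and 146), and the mean of both gave 0.30 in place of 0.54. Acta2, smooth muscle actin, read 493, 314, 411 and 370 and overlapped. Endothelial markers were lower for 5 of 18, with the scavenger receptor Stab1 at 218, 199, 148 and 117 and the VEGF receptor Kdr at 2516, 2126, 2064 and 1207, and higher for 4.

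Antioxidant genes were higher for 7 of 30 and lower for 3, the same numbers as after quantile normalization and near the shares of all genes. Hmox1, heme oxygenase, read 363, 436, 567 and 781, higher at each later age (0.74 ± 0.26, limma adjusted p = 0.679). Gpx3, a secreted glutathione peroxidase, read 376, 372, 491 and 724, and Nfe2l2 (NRF2) 873, 1347, 1737 and 1438. Catalase (Cat), among the most abundant members, was lower with 24997, 21887, 20811 and 19036. Genes of cell cycle arrest, senescence and the p53 response were higher for 6 of 23 and lower for 2, and for 4 and 1 after quantile normalization. Cxcl1, a neutrophil chemokine, read 25.5, 301, 329 and 361, Ccng1, a p53 target, 539, 587, 811 and 779, and Gdf15, a stress cytokine, 15.5, 67.1, 108 and 163. Gdf15 was under 100 in both early pools and entered the test only through the late arrays. Its difference with floored values was 0.41. Cdkn1a (p21) read 1105, 558, 999 and 1054 and overlapped, and Cdkn2a (p16) stayed under 100 on each array. Proliferation genes were higher for 7 of 25 and lower for 2, and 4 each way after quantile normalization.

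**Figure D5:**
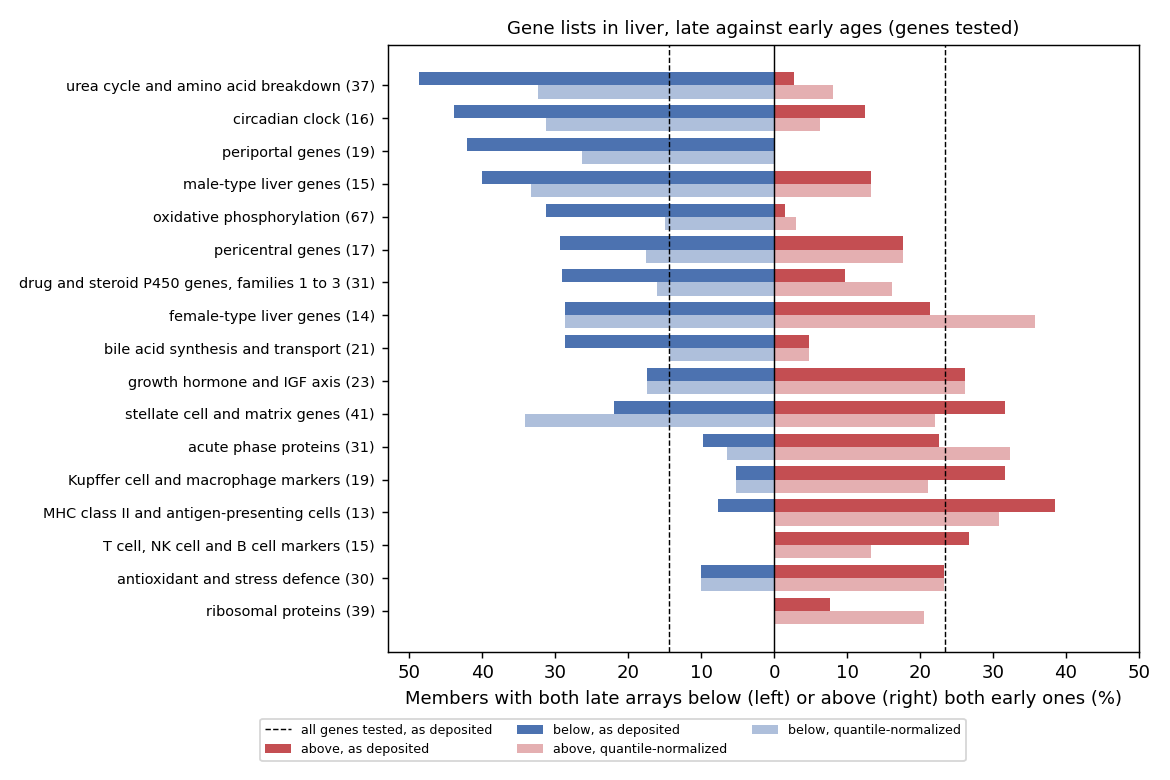
Percent of the tested members of 17 gene lists (number tested in brackets) with both late liver arrays below (blue, left) or above (red, right) both early ones, as deposited (dark) and after quantile normalization (pale). The dashed lines are the shares over all genes as deposited, 14.4% below and 23.4% above. As deposited, amino acid breakdown extends furthest to the left at 48.6%, and after quantile normalization it stands at 32.4%, under the 34.1% of matrix genes and the 33.3% of male-type genes.

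No list of the 43 held a gene past the threshold in the liver fit. In the all-array fit Sds alone among their members passed, in the lists of amino acid breakdown and periportal genes. The remaining lists, among them the proteasome, heat shock proteins, lysosome, heme and bile duct genes, held at most 7 separated members in either direction as deposited, and at most 12 after quantile normalization. Markers of neurons and pituitary were higher for 6 of 15 and lower for 0, all at low signals, such as Opcml, a neural adhesion molecule, with 184, 107, 289 and 283.

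Over the 4 ages, 568 genes were higher and 363 lower at each of the 3 steps. Steps of 2-fold or more were of like number throughout: 191 up and 161 down from 4 to 10 months, 229 and 127 from 10 to 18, and 249 and 181 from 18 to 24. With 1 array per age no step has a replicate. The largest totals among the former belonged to Serpina7, Sult2a6, Neurl3, Cyp4a8 and Prlr. Sult2a6, a hydroxysteroid sulfotransferase, read 204, 416, 482 and 1499, and Neurl3, a ubiquitin ligase, 113, 372, 419 and 599. The largest among the latter belonged to Trappc5, Baiap2l1, Nat8, Sds and Cela1. Trappc5, of a vesicle tethering complex, read 487, 473, 206 and 107, and Cela1, a pancreatic elastase, 385, 315, 270 and 38.0. Of the 121 genes separated by 2-fold, 48 of the 85 higher ones were higher still at 24 months than at 18, and 13 of the 36 lower ones lower still.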

How the data were processed

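RNA of 6 tissues from male Sprague-Dawley rats aged 4, 10, 18 and 24 months had been pooled from 10 rats per age and hybridised to 1 Affymetrix RAE230A array per tissue and age. The deposited values are signal intensities that the authors computed with MAS5.0 and scaled to a target of 500 on each array. The number of arrays limits the precision. Arrays were grouped by the tissue and age in their labels. Of 15923 probe sets, 57 were controls, 12789 had 1 gene symbol, 312 several and 2771 none in the platform annotation, and probe sets with 1 symbol were kept. Of the 10411 genes, 1868 had several probe sets, of which the one at or above 100 on the most of the 24 arrays was used, with ties settled by mean signal.

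Signals under 100 were set to 100 and log2 was taken. Genes at 100 or more on at least 2 liver arrays were tested with limma 3.58.1 in R 4.3.3 (lmFit and eBayes), at a Benjamini-Hochberg adjusted p of 0.05. The liver fit held the 4 liver arrays, with 2 residual degrees of freedom, and the all-array fit the 12 groups of tissue and period. The limma step was tested on simulated data. Other steps used Python 3.11.15, pandas 2.3.3 and numpy 2.4.6. Since 1 set of rats supplied every tissue at a given age, the all-array contrasts between tissues were also fitted with age as a block, an alternative added after seeing the data. Gene differences between the ages of a period correlated between liver and the other tissues at -0.077 to 0.109. P-values measure the spread between pools of different age, not between rats.

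The members and the 43 gene lists were chosen with earlier results of these data known. Genes were named by rule: the 12 widest gaps in each direction, for each list up to 5 separated members of large difference and its defining genes, the 5 largest totals among genes moving one way in each direction, and those past the threshold against the other tissues. The last were limited in number by the rule, and all 8 were given. The genes past the threshold in liver in the all-array fit, members standing for a function and some overlapping members were chosen after their values were seen. Alternatives were another floor (50 or 200), a pseudocount of 50, quantile normalization, median centring, other filters, the mean of a gene's probe sets, a fit without bone and leaving out each liver array. The background of genes with a mean signal of 1000 or more was added after seeing the data. Promoters were matched by symbol in RefSeq tables of GRCr8.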

Additional observations from a re-analysis of the deposited data

Results flagged for a closer look

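For 8 genes the late minus early difference in liver departed from the mean of the other 5 tissues at an adjusted p of 0.05 in the limma fit to all arrays. With age as a block, since arrays of an age share their rats, Baiap2l1, Rgs9 and Trpc1 passed and the other 5 did not, with adjusted p-values of 0.0605 to 0.0742. The departures on the log2 scale were 1.55 for Rgs9, -1.96 for Baiap2l1, -1.66 for Sds, 1.03 for Adh7, 1.94 for Trpc1, 1.16 for Usp48, 1.17 for Rtn4 and 1.32 for Socs7. Each liver group held 2 arrays. Without that block Rgs9 passed under 13 of 13 alternatives, Sds under 8 of 13, Baiap2l1 under 8 of 12, Adh7 and Trpc1 under 7 of 12, Usp48 under 6 of 13, and Rtn4 and Socs7 under 4 of 13. Adjusted p-values ran from 0.000124 to 0.152 for Baiap2l1, from 0.000124 to 0.271 for Sds, from 6.28e-08 to 0.761 for Adh7, from 0.00593 to 0.441 for Trpc1, from 0.00239 to 0.488 for Usp48, from 0.00336 to 0.239 for Rtn4 and from 0.0141 to 0.659 for Socs7. Without the 4-month liver array 2 genes passed, of which Rgs9 was shared with the 8, and without the 24-month array 11 passed, of which Adh7 and Rgs9 were shared.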

How the results depend on the processing

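No paired analysis was possible within liver because its arrays are of different rats. Across tissues, the replicate block (age), added after seeing the data, left 3 genes past the threshold against the other tissues in place of 8, all among the 8, and 0 against kidney as before. Each array is 1 pool, so no value has an error between rats. The counts of separated genes moved to 1116 above and 2221 below with median centring, and to 3192 to 3629 above and 2314 to 2498 below when 1 liver array was left out, where fewer arrays must be ordered. The counts at 2-fold became 227 above and 97 below with a floor of 50, 15 and 12 with a floor of 200, 43 and 59 with median centring, 42 and 18 with 100 required on all 4 liver arrays, 44 above with quantile normalization, and 147 to 218 above and 48 to 120 below without 1 array. In the fit to all 24 arrays, 13 genes passed in liver in place of 0. Against the other tissues 20 passed with a floor of 50, 33 with a floor of 200, 33 with no filter, 5 with the mean of probe sets, 2 with a pseudocount of 50, 2 with 100 on all 4 arrays, 2 without bone and 2 to 34 without 1 liver array. Against kidney 5 passed with a floor of 50, 15 with a floor of 200, 24 with no filter, 1 without bone and 0 to 15 without 1 liver array. The causes were not tested. With the mean of probe sets, the differences also shrank by over 1.5 times for Atp5me (-0.95 to -0.45), Clock (0.49 to 0.25), Klf9 (-0.53 to -0.23), Onecut1 (0.72 to 0.47), Opcml (1.02 to 0.51), Prodh (-0.80 to -0.40), Tecpr1 (-1.33 to -0.80), Tgfb2 (-1.08 to -0.54) and Thy1 (0.67 to 0.33). Of 1927 values of 163 named genes under the alternatives, 44 changed sign, and all but that of Csnk1d (0.22 with the mean of probe sets) belonged to genes whose groups overlapped. With the mean of probe sets Col5a1 also changed sign (0.417). With quantile normalization these were Bhlhe40 (-0.078), Bmal1 (-0.004), Clec4f (0.049), Cps1 (0.078), Cyp3a2 (0.052), Fasn (0.069) and Per1 (-0.028), and with median centring Bhlhe40 (-0.051), Bmal1 (-0.002) and Cyp2e1 (-0.083). Leaving out 1 liver array changed the sign for A1bg (-0.003 to 3.409), Acta2 (-0.337 to 0.311), Alb (-0.065 to 0.020), Ass1 (-0.532 to 0.184), Bhlhe40 (-0.185 to 0.363), Bhmt (-0.451 to 0.021), Bmal1 (-0.342 to 0.619), Cd74 (-0.053 to 0.956), Cdkn1a (-0.108 to 0.880), Clec4f (-0.408 to 0.307), Col1a1 (-0.686 to 0.332), Col1a2 (-0.259 to 0.237), Col5a1 (-0.436 to 0.133), Cps1 (-0.594 to 0.515), Cth (-0.119 to 0.658), Cyp2c12 (-0.653 to 3.043), Cyp2e1 (-0.053 to 0.167), Cyp3a2 (-0.257 to 0.083), Fasn (-0.539 to 0.486), Ghr (-0.491 to 0.051), Gnmt (-0.557 to 0.069), Nr0b2 (-1.927 to 0.007) and Per1 (-0.025 to 0.249), each with its range over the 4 omissions on the log2 scale.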
